A study of Mus musculus with 9 samples.

Results

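The Slc25 genes encode the mitochondrial carrier family, small membrane proteins most of which exchange metabolites across the inner membrane of mitochondria. Slc25a17, a peroxisomal carrier, and Slc25a46, an outer membrane protein, lie elsewhere. Genes were taken as members where the mouse symbol was Slc25a followed by a number and the mean was at least 10 normalized counts over 9 liver libraries. The table held 47 genes with such a symbol, of which 39 reached that mean, among 12100 genes that did so in all. All 39 are therefore genes with reads in liver, and a member low in every group could not enter. Just inside the limit stood Slc25a53 with a mean of 17.0 and Slc25a14 with 17.2, and just outside it Slc25a27 with 9.94 and Slc25a35 with 5.81. The other genes under the limit were Slc25a2 (mean 2.35), Slc25a31 (1.22), Slc25a18 (0.647) and Slc25a43 (0.442), while Slc25a41 and Slc25a54 had no read in any library.

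A carrier of the inner membrane works by opening alternately to the cytosol side and to the matrix. In hepatocytes the family links pathways that are split between the compartments: the urea cycle needs ornithine and aspartate carriers, gluconeogenesis and lipid synthesis need carriers of citrate, malate and aspartate, and fatty acid oxidation needs the carnitine carrier. Other members bring in adenine nucleotides, phosphate and the cofactors that matrix enzymes cannot do without. Doxycycline and tetracycline are related antibiotics that share a core of fused rings and differ in the position of a hydroxyl group. Both bind bacterial ribosomes, and mitochondrial ribosomes descend from these, which is the background against which the study compared the liver after each drug.

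Liver RNA was sequenced from male Tet-OFF mice, in which CreERT2 under the ubiquitous CAG promoter switches on the transactivator tTA at Rosa26 and a tetracycline drug then silences a tetO reporter. By the labels all 3 groups received tamoxifen, which activates the Cre, so the controls carry that treatment too, and the state of the reporter and the drug cannot be told apart. The Dox group also received Dox hyclate and the Tc group Tc hydrochloride, each at 2 mg/mL in water with 10 mg/mL sucrose for 7 days from an age of 4 weeks. The labels do not say what the controls drank, and equal mass per volume says nothing of how much drug reached the liver. Each group had 3 libraries, and recovered reads on genes ranged from 7426136 to 12183041 per library. The summed level of hepatocyte markers (Alb, Apoa1, Ttr, Cps1 and Pck1) was 1147870 to 1608680 normalized counts in controls, 496125 to 800724 with Dox and 785063 to 1248760 with Tc, so the labelled tissue carried its markers in every library. Most of this sum was Alb, at 1408840 of 1608680 in control library 1, and these markers did not move alike. With Dox, Alb was under the controls in every library and Cps1 above them in every library. Apoa1, Ttr and Pck1 lay on both sides of the controls with Dox. In whole-liver RNA, fewer cells of a type and less RNA per cell cannot be told apart.

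In every group, library 3 could be approximated by adding libraries 1 and 2, at fitted weights of 58.4% and 41.7% in controls, 61.3% and 34.5% with Dox, and 61.2% and 36.9% with Tc. Of the genes over 2-fold apart between libraries 1 and 2, library 3 lay between them for 501 of 586 in controls, 4139 of 4264 with Dox and 962 of 1022 with Tc. Over the 39 members, however far apart, this was so for 20 in controls, 35 with Dox and 25 with Tc. The study describes the libraries of a group as independent biological replicates. As far as libraries 3 repeat the others, they add less than a separate liver would, and adjusted p-values from all 9 libraries may be too small. Counts of calls and the members called by limma are therefore given with libraries 3 and without them. Without them, the smallest limma adjusted p of any member was 0.559 for Dox against control, 1 for Tc against control and 0.755 for Dox against Tc.

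Per base of exon and scaled to the same total in each library (parts per 1000000), the family spanned a 1241-fold range of mean level over all libraries. A level of at least 100 units was reached by 10 members, 19 lay from 10 to 100, and 10 lay under 10. The highest was Slc25a47, a carrier found mainly in hepatocytes, at 815 units, followed by the adenine nucleotide translocase Slc25a5 at 656, the glutathione carrier Slc25a39 at 328, the ornithine carrier Slc25a15 at 227 and the aspartate-glutamate carrier Slc25a13 (citrin) at 179. These 5 made up 64.3% to 66.7% of the family's sum in controls, 51.6% to 67.1% with Dox and 48.6% to 54.4% with Tc. The liver forms stood well above their relatives. Slc25a12, the aspartate-glutamate carrier of brain and muscle, stood at 0.0717 to 0.0875 times Slc25a13 in controls, and Slc25a4, the translocase of heart and muscle, at 0.0126 to 0.0153 times Slc25a5. Slc25a47 and Slc25a5 held the first ranks in every group. By group means, Slc25a25 moved from rank 14 in controls to 12 with Dox and 8 with Tc. Slc25a33 moved from rank 21 to 10 with Dox and 24 with Tc. Its Dox mean covers 35.3, 248 and 95.3 units in Dox libraries 1, 2 and 3. Neighbours from rank 6 to 9 (Slc25a1, Slc25a23, Slc25a3 and Slc25a10) had overlapping ranges over the libraries. Reads are assigned by unique mapping, so the level of Slc25a5, which has processed pseudogenes in the genome, is uncertain.

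**Figure D1:**
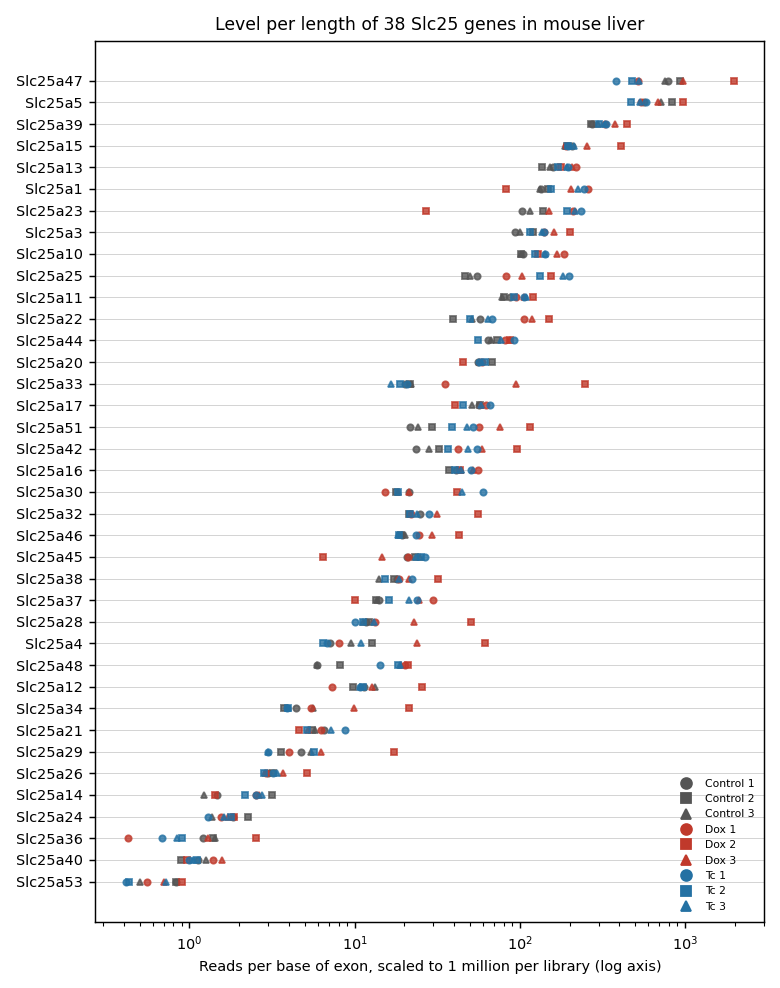
Level per length of 38 of the 39 members (rows, in order of the mean over 9 libraries) on a log axis, in reads per base of exon scaled to a total of 1000000 per library. Points are libraries, with grey for control, red for Dox and blue for Tc, and circle, square and triangle for libraries 1, 2 and 3. Slc25a47 and Slc25a5 lead at means of 815 and 656, and the red square of Dox library 2 stands apart for many members.

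The 5 leading members did not pass the test in any comparison. Slc25a47 had 8624, 8896 and 7922 normalized counts in the control libraries, 5166, 15983 and 8618 with Dox, and 3751, 5212 and 5258 with Tc. All Tc values lay under all controls, at a log2 fold change of -0.85 (SE 0.36) and an adjusted p of 0.418 from limma, while the Dox values straddled the controls. Slc25a5 had 3411, 4396 and 4117 in controls, 2976, 4342 and 3355 with Dox, and 3139, 2838 and 2928 with Tc, with all Tc libraries again under all controls (log2 -0.41, SE 0.18, limma adjusted p 0.418). Slc25a39 had 2784, 2366 and 2867 in controls, 3007, 3322 and 3076 with Dox, and 2991, 3032 and 3031 with Tc, a difference of at most 0.23 on the log2 scale. The glutathione carrier was the steadiest of the abundant members, and its treated libraries all lay above the controls. Slc25a15 had 4277, 3456 and 3709 in controls, 3568, 6208 and 4284 with Dox, and 3590, 4028 and 4012 with Tc. Slc25a13 had 2211, 1660 and 2014 in controls, 2764, 1821 and 2351 with Dox, and 2443, 2366 and 2470 with Tc. The ornithine carrier was highest in Dox library 2, the library in which citrin was lowest of its group.

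Across the family, more members had a positive than a negative estimate after either drug. With Dox the median log2 fold change of the 39 members was 0.17 against 0.00 for all 12100 genes, with 29 members higher and 10 lower, and the range ran from -1.05 (Slc25a45) to 1.94 (Slc25a33). With Tc the median was 0.12 against 0.00, with 25 higher and 14 lower, from -0.85 (Slc25a47) to 1.73 (Slc25a25). Without libraries 3 the medians were 0.18 and 0.13. Scaling every library to the same total moved the median of all genes by 0.17 for Dox and by -0.00067 for Tc. The Dox median of the members is as large as this difference between scalings, which moves members and other genes together. A fold change over 2 was seen for 6 members with Dox (13.4% of all genes) and for 2 with Tc (5.78%). Both drugs were compared with the same controls, so their values are not independent. Markers of other liver cells also differed between the groups: the sum of 4 endothelial markers was 3787 to 3882 normalized counts in controls, 1828 to 2136 with Dox and 2873 to 3397 with Tc, and that of 4 Kupffer cell markers was 5508 to 8999, 1518 to 3617 and 2597 to 5215. Not every endothelial marker fell throughout: Pecam1 was 297 to 324 in controls and 166, 338 and 237 with Dox. The sum of 4 cholangiocyte markers was 39.2 to 52.1 in controls, 87.4 to 104 with Dox and 45.9 to 64.9 with Tc. Most of the Dox sum was Sox9, at 69.0 of 104 in Dox library 2, and these markers did not move alike. Sox9 and Krt7 were above the controls in every Dox library, while Krt19 and Epcam overlapped the controls. Epcam was 6.35 to 14.0 in controls and 6.32 to 8.05 with Dox. The sum of 4 stellate cell markers overlapped the controls with either drug. The part of these cell types in the members' values was not tested.

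**Figure D2:**
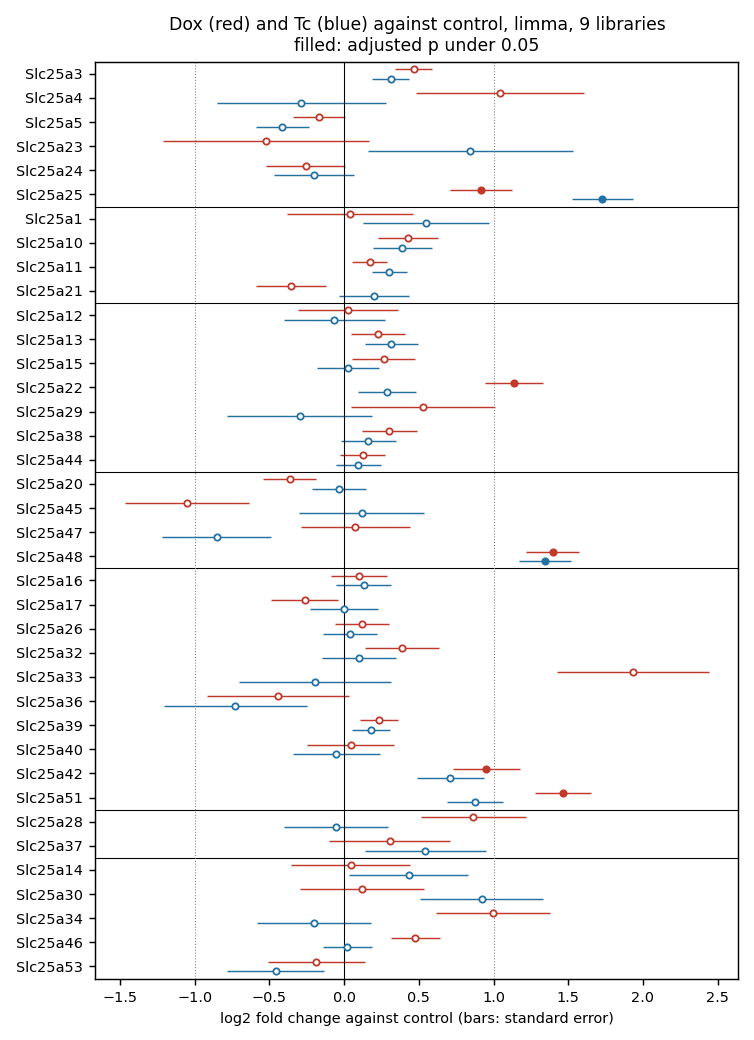
log2 fold change against control from limma with all 9 libraries for 38 of the 39 members (rows, in blocks by cargo), with Dox in red and Tc in blue, standard errors as bars, and dotted lines at a change of 2-fold. Filled points have an adjusted p under 0.05, and these are 5 members for Dox and 2 for Tc, all to the right of zero.

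In the Dox comparison 3 members passed both thresholds of the study (fold change over 2, adjusted p under 0.05), all higher: Slc25a22, Slc25a48 and Slc25a51. Of all genes tested, 1.14% were called higher by the same rule. Without the fold limit 5 members were higher, adding Slc25a25 and Slc25a42, against 3.16% of all genes, and 0 members were lower, against 5.26% of all genes. An unadjusted limma p under 0.05 was found for 11 members, against 29.1% of all genes. With libraries 3 left out, limma and edgeR called 0 members in this comparison, with 6 at an unadjusted p under 0.05 in each (8.60% of all genes by limma), and DESeq2 on recovered reads called 2 higher (Slc25a48 and Slc25a51), where 0.355% of all genes were called higher. Groups did not overlap for 11 members higher with Dox (the 5 above with Slc25a3, Slc25a28, Slc25a33, Slc25a39, Slc25a44 and Slc25a46), against 16.1% of all genes, and for 2 lower (Slc25a20 and Slc25a45), against 17.1%. For Slc25a44 the gap was less than 1 read (847.8 normalized counts in Dox library 2 against 846.8 in control library 1).

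In the Tc comparison 2 members passed both thresholds, Slc25a25 and Slc25a48, both higher, where 0.0413% of all genes, 5 genes in number, were called higher by both thresholds and 0.0413% by adjusted p alone. No member was called lower (0 of 39, with 0.140% of all genes at an adjusted p under 0.05), and 8 had an unadjusted limma p under 0.05 in either direction, against 11.7% of all genes. With libraries 3 left out, limma and edgeR called 0 members, with 3 at an unadjusted p under 0.05 in each (1.98% of all genes by limma), and DESeq2 called 1, Slc25a25, where 0.0165% of all genes were called higher. With the replicate number as a block, 0 members were called for Tc, and 3 for Dox by adjusted p alone. Groups did not overlap for 13 members higher with Tc (among them Slc25a1, Slc25a3, Slc25a10, Slc25a11, Slc25a13, Slc25a23, Slc25a25, Slc25a37, Slc25a39, Slc25a42, Slc25a48 and Slc25a51), against 15.8% of all genes, and for 4 lower (Slc25a5, Slc25a33, Slc25a36 and Slc25a47), against 14.9%.

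Slc25a25 encodes a calcium-regulated carrier that exchanges ATP-Mg for phosphate and so sets the size of the matrix adenine nucleotide pool. It had 1588, 1171 and 1372 normalized counts in the control libraries, 2155, 3305 and 2413 with Dox, and 5099, 3784 and 4829 with Tc. The 3 groups did not overlap, with every Tc library above every Dox library and every Dox library above every control. Against control, limma gave a log2 fold change of 1.73 with Tc (SE 0.21, adjusted p 0.0316) and of 0.92 with Dox (SE 0.21, adjusted p 0.0335). Without libraries 3 the adjusted p for Tc was 1 by limma and 0.0394 by DESeq2, and for Dox it was 0.571 and 0.290. Dox was lower than Tc by limma, at -0.81 on the log2 scale with a 95% interval from -1.28 to -0.34 and an adjusted p of 0.116. The gene lies at chr2:32414487-32451445 on the minus strand (GRCm38), and its exons overlap those of Naif1 on the opposite strand, which had a mean of 57.3 normalized counts.

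Slc25a23, the calcium-regulated ATP-Mg carrier that was highest in control liver, had 2001, 2341 and 2154 in controls, 3702, 387 and 2375 with Dox, and 4088, 3754 and 3812 with Tc. The Tc libraries all lay above the controls (log2 0.85, SE 0.69, limma adjusted p 0.709), whereas Dox library 1 lay above and Dox library 2 far below them. Per length, Slc25a23 exceeded Slc25a25 by 1.87 to 2.97 times in controls and 1.17 to 1.47 times with Tc, and the ratio was 2.55 in Dox library 1 and 0.174 in Dox library 2. Slc25a24, the third of these carriers, was low throughout, at 14.6 to 24.8 normalized counts, with differences of -0.26 with Dox and -0.20 with Tc. The other carriers of phosphate and adenine nucleotides were Slc25a3, Slc25a4 and Slc25a5. The phosphate carrier Slc25a3 was higher in all treated libraries (2338 to 3043) than in controls (1911 to 2126), with log2 fold changes of 0.47 with Dox (SE 0.12, limma adjusted p 0.0526) and 0.31 with Tc (SE 0.12, limma adjusted p 0.395). Slc25a4 had 61.4, 96.4 and 78.8 in controls, 63.2, 393 and 167 with Dox, and 52.7, 55.8 and 86.7 with Tc. The summed level of 3 skeletal muscle markers (Acta1, Ckm and Myh4) was 91.5 to 120 in controls, 138, 0 and 83.6 with Dox, and 0, 0 and 2.53 with Tc. All 3 markers were at 0 in Dox library 2, where this muscle translocase was highest. They were also at 0 in Tc library 1 and Tc library 2, where Slc25a4 was 52.7 and 55.8. The part of muscle RNA in the Slc25a4 values was not tested.

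The RefSeq table (GRCm38.p6) lists 3 start sites for Slc25a25. The 250 bases upstream of the outermost and of the innermost start are shown because this member moved with both drugs, with every match to 6 short motifs in capitals. The motifs, searched on both strands, were the cAMP response element TGACGTCA, the E-box CACGTG, the CCAAT box CCAAT, the TATA box TATAAA, the GC box GGGCGG and the half-site AAGGTCA of estrogen-related receptors.
Slc25a25, outermost start, chr2:32451471-32451720, minus strand: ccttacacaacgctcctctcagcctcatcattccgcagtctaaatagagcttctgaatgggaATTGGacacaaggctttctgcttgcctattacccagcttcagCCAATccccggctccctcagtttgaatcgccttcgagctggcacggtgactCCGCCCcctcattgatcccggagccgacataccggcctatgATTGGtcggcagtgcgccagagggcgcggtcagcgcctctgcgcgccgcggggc
Slc25a25, innermost start, chr2:32424067-32424316, minus strand: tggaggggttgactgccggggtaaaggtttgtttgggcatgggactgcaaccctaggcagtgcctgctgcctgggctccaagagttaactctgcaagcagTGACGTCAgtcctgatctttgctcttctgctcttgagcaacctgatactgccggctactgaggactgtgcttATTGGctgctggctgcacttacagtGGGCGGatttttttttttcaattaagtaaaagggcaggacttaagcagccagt
The outermost window held CCAAT boxes beginning 188, 146 and 54 bases before the start and a GC box at 95. The innermost window held a cAMP response element at 150, a motif found in 1.55% of all 32851 promoter windows of the same length, with a CCAAT box at 78 and a GC box at 53. The bases just after the innermost start were not found in the GENCODE transcripts used here, and counts per gene do not tell which start was used. Of 32 members in the table, 2 held the cAMP response element at some start (Slc25a25 and Slc25a36), 6 the E-box (6.02% of all windows), 18 the CCAAT box (33.8%), 24 the GC box (32.7%), 1 the TATA box (12.4%) and 1 the half-site (4.08%). Members with several starts had several windows in which to match. A match is a run of letters and no evidence of binding.

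Slc25a48, a choline carrier of the inner membrane at chr13:56438355-56474239 on the plus strand, rose with both drugs. It had 73.0, 88.5 and 69.9 normalized counts in controls, 228, 193 and 191 with Dox, and 158, 226 and 212 with Tc. Every treated library was above every control, and the drug groups overlapped. The log2 fold change was 1.40 with Dox (SE 0.18, limma adjusted p 0.00744) and 1.34 with Tc (SE 0.18, limma adjusted p 0.0332). Without libraries 3 the adjusted p for Dox was 0.559 by limma and 0.0423 by DESeq2, and that for Tc was 1 and 0.484. The drugs differed by 0.05 on the log2 scale, with a 95% interval from -0.35 to 0.45.

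Slc25a48 was grouped with the carnitine carrier and its relatives. The carnitine-acylcarnitine carrier Slc25a20, which brings fatty acids in for oxidation, had 962 to 1047 in controls, 592 to 953 with Dox and 903 to 1093 with Tc (log2 -0.37 with Dox, SE 0.18, limma adjusted p 0.211). Slc25a45 had 211, 206 and 240 in controls, 195, 48.3 and 121 with Dox, and 240, 256 and 216 with Tc. Its Dox libraries lay under all others, at a log2 fold change of -1.05 against control (SE 0.42, limma adjusted p 0.138), the lowest in the family for Dox. Per length, Slc25a45 exceeded Slc25a48 by 2.85 to 4.20 times in controls, and the ratio was 0.305 to 1.04 with Dox and 1.25 to 1.85 with Tc.

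Slc25a51 is the carrier that brings NAD+ into mitochondria, at chr4:45395923-45408766 on the minus strand. It had 436, 521 and 465 normalized counts in controls, 1047, 1723 and 1240 with Dox, and 934, 786 and 889 with Tc. The groups again did not overlap, here with Dox highest. Dox gave a log2 fold change of 1.47 (SE 0.19, limma adjusted p 0.00744), and without libraries 3 the adjusted p was 0.559 by limma and 0.0168 by DESeq2. Tc gave 0.87 (SE 0.19, limma adjusted p 0.146). The difference between the drugs was 0.59, with a 95% interval from 0.17 to 1.02 and a limma adjusted p of 0.155.

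Slc25a42 carries coenzyme A and adenine nucleotides and lies at chr8:70184340-70212305 on the minus strand. It had 519, 623 and 595 normalized counts in controls, 850, 1560 and 1055 with Dox, and 1076, 807 and 975 with Tc, so every treated library was above the controls and the drugs overlapped. The log2 fold change was 0.95 with Dox (SE 0.22, limma adjusted p 0.0365) and 0.71 with Tc (SE 0.22, limma adjusted p 0.292). Without libraries 3 the Dox adjusted p was 0.571 by limma and 0.290 by DESeq2. Slc25a16, its relative that is also linked to coenzyme A, had 572 to 745 in controls, 561 to 897 with Dox and 705 to 797 with Tc, at log2 fold changes of 0.10 for Dox and 0.13 for Tc.

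The windows of 250 bases before the starts of Slc25a48, Slc25a42 and Slc25a22 are shown as those of further members that passed the test in at least 1 comparison, with the same motifs in capitals. Slc25a51, which also passed, was not matched in the table. For Slc25a22 the outermost of 3 starts is given.
Slc25a48, chr13:56438105-56438354, plus strand: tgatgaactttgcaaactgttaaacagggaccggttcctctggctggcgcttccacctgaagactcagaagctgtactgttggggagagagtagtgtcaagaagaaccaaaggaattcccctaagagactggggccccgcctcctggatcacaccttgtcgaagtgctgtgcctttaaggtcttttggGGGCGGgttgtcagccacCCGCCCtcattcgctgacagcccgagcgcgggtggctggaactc
Slc25a42, chr8:70212282-70212531, minus strand: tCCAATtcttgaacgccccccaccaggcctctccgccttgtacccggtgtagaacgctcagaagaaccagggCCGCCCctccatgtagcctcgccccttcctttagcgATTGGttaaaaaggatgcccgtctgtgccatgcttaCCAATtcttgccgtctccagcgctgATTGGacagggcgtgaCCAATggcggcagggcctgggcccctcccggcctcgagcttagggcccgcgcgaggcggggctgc
Slc25a22, outermost start, chr7:141437875-141438124, minus strand: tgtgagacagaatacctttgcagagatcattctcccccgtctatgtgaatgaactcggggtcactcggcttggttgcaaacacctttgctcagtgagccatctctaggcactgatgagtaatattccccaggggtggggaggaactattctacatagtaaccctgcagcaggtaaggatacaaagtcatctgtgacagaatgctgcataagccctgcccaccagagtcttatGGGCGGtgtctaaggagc
The Slc25a48 window held GC boxes at 62 and 44 bases before the start and no CCAAT box. The Slc25a42 window held 5 CCAAT boxes, at 249, 142, 106, 81 and 65, and a GC box at 178. The Slc25a22 window held a GC box at 18. The windows of these members and of Slc25a25 shared the GC box, which 24 of 32 members held.

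Slc25a22 is the mitochondrial glutamate carrier, at chr7:141429744-141437892 on the minus strand. It had 1256, 756 and 1079 normalized counts in controls, 2124, 2434 and 2118 with Dox, and 1324, 1097 and 1283 with Tc. All Dox libraries stood above all others, and Tc overlapped the controls. The log2 fold change was 1.14 with Dox (SE 0.19, limma adjusted p 0.0150) and 0.29 with Tc (SE 0.19, limma adjusted p 0.627), and without libraries 3 the Dox adjusted p was 0.559 by limma and 0.114 by DESeq2. Dox exceeded Tc by 0.85, with a 95% interval from 0.41 to 1.29 and a limma adjusted p of 0.0957.

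**Figure D3:**
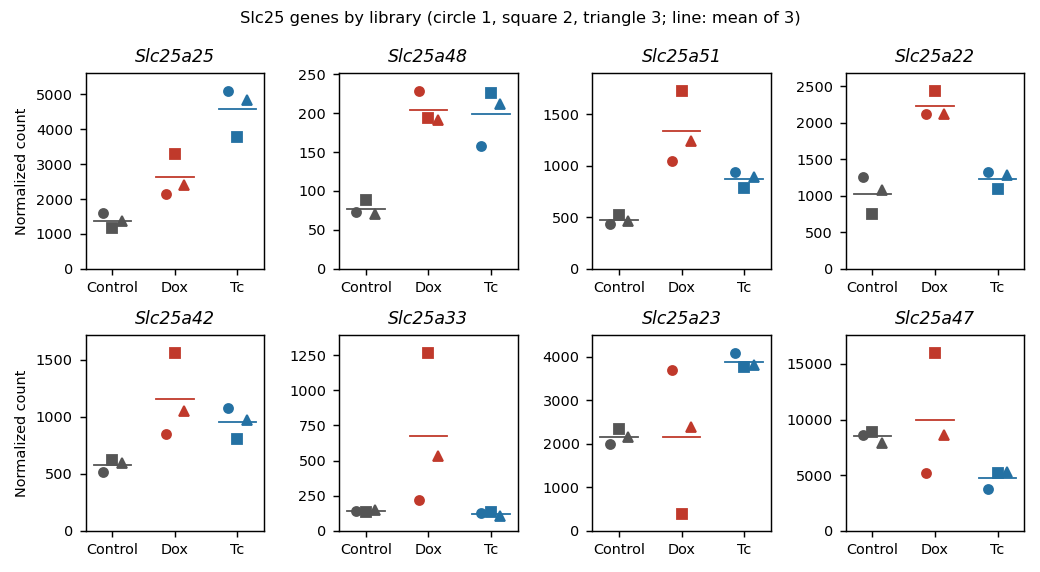
Normalized counts of 8 members in the 9 libraries, with circle, square and triangle for libraries 1, 2 and 3 and a line at the mean of each group; every vertical axis starts at 0. Slc25a25 steps up from control to Dox to Tc, Slc25a22 is raised with Dox, and Slc25a23, Slc25a33 and Slc25a47 differ widely between Dox libraries 1 and 2.

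The other amino acid carriers differed little from control on average. All 7 tested members of this group had a positive Dox estimate, as had 50% of all genes, with a median log2 fold change of 0.26. With Dox 1 passed the test (Slc25a22), against 3.16% of all genes higher by adjusted p alone. With Tc the median was 0.10, with 5 members higher and 2 lower, and 0 passed, against 0.0413% of all genes higher. Slc25a12 had 230 to 341 in controls, 179 to 508 with Dox and 261 to 304 with Tc, and Slc25a44, a carrier of branched-chain amino acids, had 833 to 847, 848 to 970 and 731 to 1073. The glycine carrier Slc25a38, needed for heme synthesis, had 136 to 182, 170 to 238 and 154 to 201. Slc25a29, which carries basic amino acids, had 30.1 to 49.6 in controls and 25.4 to 54.0 with Tc, and with Dox 34.7, 123 and 48.4, the second library being the highest of all.

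Carriers of di- and tricarboxylates shuttle the acids that link the tricarboxylic acid cycle with the cytosol, and 0 of 4 passed the test in any comparison. The citrate carrier Slc25a1, which supplies citrate for fatty acid synthesis, had 1067, 1020 and 1003 in controls, 1867, 482 and 1320 with Dox, and 1724, 1222 and 1621 with Tc. Its Tc libraries were all above the controls (log2 0.55, SE 0.42, limma adjusted p 0.684), and Dox libraries 1 and 2 lay on opposite sides of them. The dicarboxylate carrier Slc25a10 had 1121 to 1326 in controls, 1199 to 2144 with Dox and 1572 to 1641 with Tc. The oxoglutarate carrier Slc25a11, of the malate-aspartate shuttle, had 547 to 683, 669 to 691 and 717 to 771, and its exons overlap those of Rnf167 on the opposite strand (mean 382). Slc25a21, a carrier of oxoadipate, had 85.8 to 117, 61.0 to 101 and 91.7 to 139.

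Among the 11 cofactor, nucleotide and glutathione carriers, 2 passed the test with Dox (Slc25a42 and Slc25a51) and 0 with Tc, at medians of 0.12 and 0.10. Of all genes, 3.16% were higher with Dox and 0.0413% with Tc by adjusted p alone. This group was drawn with earlier results known, so its count is not read as a result about such carriers. Slc25a33, a pyrimidine nucleotide carrier, had 140, 131 and 145 in controls, 222, 1266 and 536 with Dox, and 128, 130 and 105 with Tc. Every Dox library was above the controls, with a wide spread. The Tc libraries reached 130.4 and the controls began at 130.9, a gap of less than 1 read, and the Tc estimate was -0.20 (SE 0.51, limma adjusted p 0.928). Its Dox estimate, 1.94 (SE 0.51), was the largest in the family and missed the threshold (limma adjusted p 0.0509, and without libraries 3 0.573 by limma and 0.0849 by DESeq2). The second pyrimidine nucleotide carrier, Slc25a36, had 42.3, 42.5 and 48.3 in controls, 13.7, 65.6 and 37.0 with Dox, and 21.5, 31.5 and 27.0 with Tc, the Tc libraries all being under the controls (log2 -0.73, SE 0.48, limma adjusted p 0.615). Per length, Slc25a33 exceeded Slc25a36 by 15.3 to 16.8 times in controls, 73.7 to 98.2 times with Dox and 19.9 to 30.3 times with Tc, so the ratio was more even over the Dox libraries than either gene.

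The remaining cofactor carriers showed no difference past the test. Slc25a17, a peroxisomal carrier of coenzyme A and flavins, had 514 to 596 in controls, 314 to 595 with Dox and 471 to 610 with Tc. The S-adenosylmethionine carrier Slc25a26, whose exons overlap those of Lrig1 on the opposite strand, had 48.3 to 52.9, 46.3 to 66.7 and 49.5 to 54.7, the narrowest range of these. Slc25a32, linked to folate and flavin transport, had 416 to 553, 448 to 926 and 482 to 561. Slc25a40, the low relative of Slc25a39, had 23.9 to 36.9, 21.9 to 39.6 and 27.3 to 34.2.

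The mitoferrins bring iron in for heme and iron-sulfur clusters. Slc25a37 (mitoferrin 1) had 310, 259 and 287 normalized counts in controls, 600, 164 and 443 with Dox, and 469, 356 and 430 with Tc. Slc25a28 (mitoferrin 2) had 162, 147 and 149, then 165, 513 and 254, then 124, 155 and 164. In Dox library 2 mitoferrin 1 was lowest and mitoferrin 2 highest of all libraries, and per length mitoferrin 2 went from 0.831 to 0.910 times mitoferrin 1 in controls to 5.01 times there. Because mitoferrin 1 is a known gene of red cell precursors, erythroid markers stand beside it: the hemoglobin gene Hbb-bs was 815 to 3277 in controls, 481 to 708 with Dox and 555 to 748 with Tc. Its part in the Slc25a37 values was not tested. Alas2, which starts heme synthesis in red cell precursors, had 119, 335 and 222 in controls, 1368, 46.0 and 828 with Dox, and 1212, 115 and 775 with Tc. Dox library 1 was the highest for both Alas2 and Slc25a37, and Dox library 2 the lowest for both.

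The last group holds members of unknown or disputed cargo, and 0 of 5 passed the test. Slc25a30, an uncoupling-protein-like carrier, had 360, 262 and 292 in controls, 234, 519 and 292 with Dox, and 900, 306 and 681 with Tc (log2 0.92 with Tc, SE 0.41, limma adjusted p 0.442). Its Tc library 1 was the highest and Tc library 2 overlapped the controls. Slc25a34 had 31.8 to 52.1 in controls and 34.2 to 38.7 with Tc, and 48.4, 154 and 79.2 with Dox. Slc25a46, an outer membrane protein of mitochondrial shape, had 331 to 385, 442 to 632 and 335 to 415, with all Dox libraries above all others (log2 0.48 against control, SE 0.16). Slc25a53 had 24.3, 21.2 and 14.0 in controls, 14.7, 19.6 and 16.7 with Dox, and 10.7, 12.6 and 19.4 with Tc, and Slc25a14 had 10.2 to 23.9, 9.20 to 20.0 and 18.9 to 21.9, both at few reads.

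**Figure D4:**
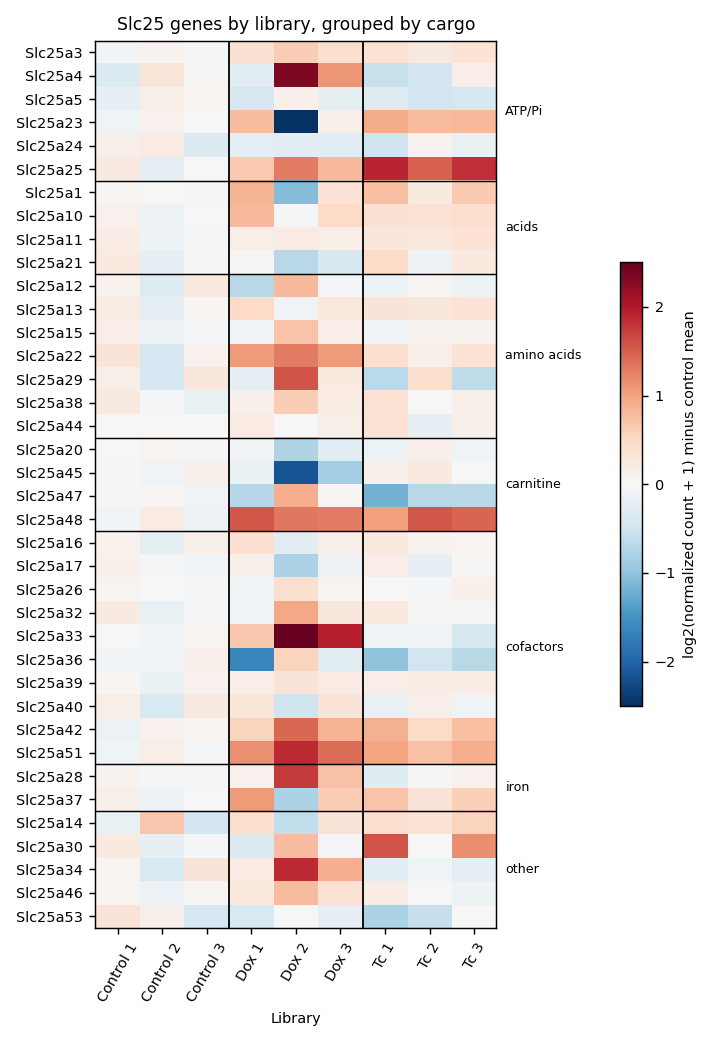
log2(normalized count + 1) of 38 of the 39 members (rows, in blocks by cargo) in the 9 libraries (columns), as the difference from the mean of the control libraries, with red for higher and blue for lower; the colour scale ends at 2.5. Rows such as Slc25a48, Slc25a51 and Slc25a25 are red in all 6 treated libraries, whereas the Dox library 2 column holds the darkest red and the darkest blue cells.

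Dox and Tc were then set against each other at the same nominal concentration and time, as 1 pair of compounds. By limma 0 members passed with or without the fold limit, against 0.215% and 0.231% of all genes, and an unadjusted p under 0.05 was found for 11, against 21.7% of all genes. When the recovered reads of all 9 libraries were tested, DESeq2 called 3 members by both thresholds (Slc25a4, Slc25a33 and Slc25a34, all higher with Dox), against 4.98% of all genes, and edgeR called 0. Without libraries 3, 0 members were called by limma, edgeR or DESeq2, where DESeq2 called 0.256% of all genes, and 2 members, Slc25a22 and Slc25a33, had an unadjusted limma p under 0.05, against 3.75% of all genes. The same comparison with the replicate number as a block called 0. The median difference of the members was 0.08, against -0.02 for all genes, with 24 members higher and 15 lower with Dox.

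A p that misses the threshold does not show equal response, and the intervals ranged widely. The Dox group stood above the Tc group without overlap for 7 members (Slc25a3, Slc25a22, Slc25a28, Slc25a33, Slc25a34, Slc25a46 and Slc25a51), against 12.2% of all genes, and below it for 5 (among them Slc25a11, Slc25a23, Slc25a25 and Slc25a45), against 12.4%. The widest positive difference was that of Slc25a33, 2.13 with a 95% interval from 0.98 to 3.29 and a limma adjusted p of 0.105. The widest negative one was that of Slc25a23, -1.37 with an interval from -2.93 to 0.20. Slc25a45 differed by -1.17, with an interval from -2.12 to -0.22 and a limma adjusted p of 0.175. These intervals treat libraries 3 as separate livers and may be too narrow.

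Within the Dox group, libraries 1 and 2 were farther apart than in the other groups. Between them, 15 of 39 members were over 2-fold apart with Dox, against 35.2% of all genes, 2 with Tc and 0 in controls. Dox library 2 was the higher by over 2-fold for 10 members (25.6%, against 17.7% of all genes) and the lower for 5 (12.8%, against 17.6%). It was the highest library for 18 members (46.2%, against 33.4%) and the lowest for 11 (28.2%, against 32.1%). For 10 members (25.6%, against 29.8% of all genes) Dox libraries 1 and 2 lay on opposite sides of the control range. The largest gaps were those of Slc25a23 at -3.26 (log2 of library 2 over library 1) and Slc25a4 at 2.62, with Slc25a33 at 2.51, Slc25a36 at 2.18 and Slc25a45 at -1.99. By contrast Slc25a22 (0.20), Slc25a48 (-0.24), Slc25a3 (0.24), Slc25a39 (0.14) and Slc25a11 (0.05) were alike in both Dox livers. The family's summed level per length was 3098 to 3544 in controls, 2970 to 3478 with Tc and 3482, 5934 and 4251 with Dox. The most abundant gene of each library took 9.90% to 12.8% of all counts in controls, 4.36% to 6.07% with Dox and 5.78% to 9.98% with Tc, and its part in the levels per length was not tested.

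**Figure D5:**
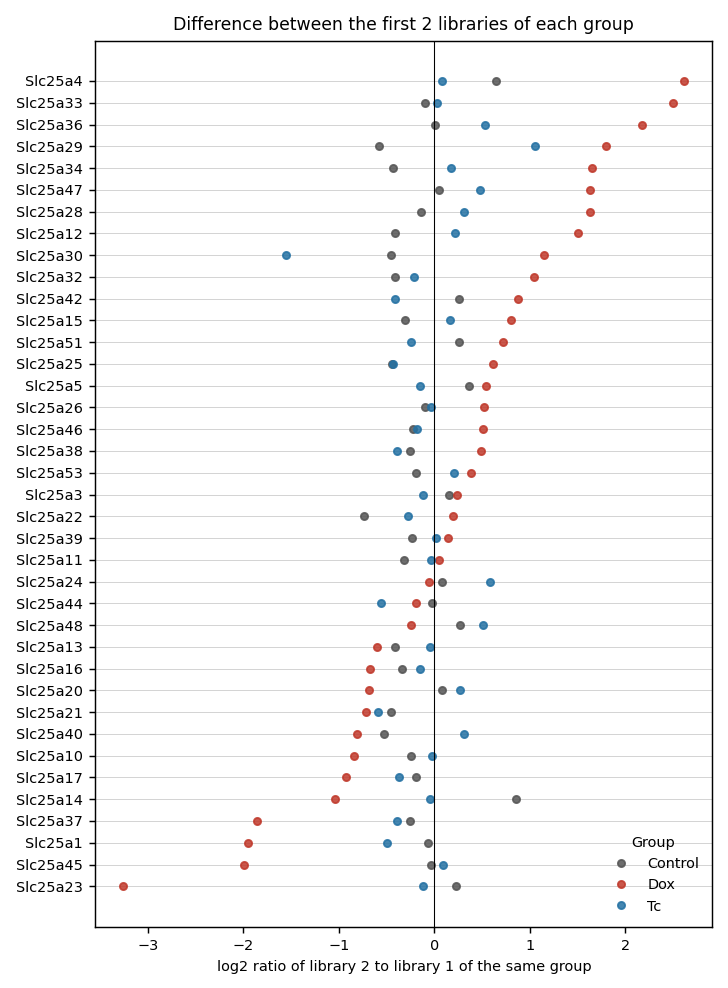
log2 ratio of library 2 to library 1 of the same group for 38 of the 39 members (rows, in order of the Dox ratio), with grey for control, red for Dox and blue for Tc. The Dox points run from -3.26 (Slc25a23) to 2.62 (Slc25a4), wider than the grey and blue points.

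Other genes of mitochondrial transport and metabolism were read against the 3.16% of all genes higher with Dox by adjusted p alone. Of 28 tested genes for pyruvate, calcium, iron-sulfur and channel transport and for carrier import, 1 was higher with Dox by adjusted p alone and 0 with Tc. That gene was Timm9, a chaperone that guides carriers through the intermembrane space, with 97.4, 83.2 and 94.1 in controls, 181, 185 and 172 with Dox, and 169, 118 and 116 with Tc (log2 0.96, SE 0.17, limma adjusted p 0.0163, and 0.219 by DESeq2 without libraries 3). Of 28 enzymes that use the carried metabolites, 2 were higher with Dox and 0 with Tc. Of these, Mdh2, mitochondrial malate dehydrogenase, had 910, 917 and 1070 in controls, 1451, 1763 and 1531 with Dox, and 1566, 1436 and 1357 with Tc (log2 0.71 with Dox, SE 0.13, limma adjusted p 0.0186, and 0.135 by DESeq2 without libraries 3). This matrix enzyme was above the controls in every treated library. Relatives of the family under other symbols were tested for Ucp2, Mtch1 and Mtch2, and 0 of 3 passed.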

How the data were processed

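Liver RNA-seq of 3 groups (Control, Dox and Tc, 3 libraries each) was used. The authors trimmed the reads with cutadapt, aligned them to mm10 with STAR and GENCODE vM23, counted uniquely mapped reads per gene with HTSeq and normalized with DESeq2, after a directional library kit whose strand setting in counting is not given in the sources used here. What the authors deposited is a signal, the count of each gene over its library's size factor (normalized counts). Whole reads were recovered for 100% of values (tolerance 0.01 of a read), from 7426136 to 12183041 per library. Columns of the table were all used, and symbols were found for 32158 of 32285 identifiers.

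log2(normalized count + 1) was tested with limma 3.58.1 in R 4.3.3 (trend, 1 model of 9 libraries, two-sided), with Benjamini-Hochberg adjustment over 12100 genes whose mean reached 10. Fold changes are on that scale and understate those of low genes. A call needed an adjusted p under 0.05 and a fold change over 2. Recovered reads were tested with DESeq2 1.42.0 and edgeR 4.0.16. The scripts were checked on simulated counts. The study calls the libraries independent samples, while the labels do not say that they came from separate mice, so p-values measure the spread between libraries.

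Deviations from the group means were correlated between Dox and Tc libraries of the same label number (r = 0.29, 0.32 and 0.18), so a fit with that replicate number as a block was added. Libraries 3 resemble mixtures of the others, so these correlations may not be independent. Control libraries did not pair with either group (r from -0.08 to 0.06). Levels between genes were divided by exonic length from GENCODE vM21 (GRCm38), and promoters came from RefSeq (GRCm38.p6). The values of 1 member and of 1 listed enzyme are not reported here, though both stay in the counts. The members and the gene lists were chosen with earlier results of these data known. Members with every library printed were those past the test, the 3 highest and 3 lowest changes per drug, the 5 highest levels and Slc25a25. Members printed in every library outside that rule (Slc25a1, Slc25a4, Slc25a28, Slc25a37 and the Dox libraries of Slc25a29 and Slc25a34) were chosen after their values were seen, as were Alas2 and Hbb-bs from the marker lists and the start sites shown. Alternatives covered the pseudocount (0.1 or 8), the filter (none or a mean of at least 50), the block, the tool, the scaling, the groups fitted and each library left out.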

Additional observations from a re-analysis of the deposited data

Results flagged for a closer look

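Slc25a33, a pyrimidine nucleotide carrier, had every Dox library above and every Tc library below the control libraries. On the Tc side the gap was less than 1 read (130.4 against 130.9 normalized counts), and the Tc estimate against control was -0.20 (SE 0.51, limma adjusted p 0.928). The drugs differed by 2.13 on the log2 scale (Dox higher). The limma test of this difference with all 9 libraries gave an adjusted p of 0.105, which did not pass. The 3 Tc libraries lay between 105 and 130 normalized counts and the 3 controls between 131 and 145, and the Dox libraries were spread from 222 to 1266.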

How the results depend on the processing

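Under no alternative did a named member's change that passed the test reverse its direction. Over all named members, 940 values kept their side of the threshold, 52 lost it and 26 gained it. For Dox against Control, 3 members were called by both thresholds, 6 with the same total per library, 5 with DESeq2 on recovered reads, 5 with an unadjusted p, 0 without libraries 3 by limma and 0 by edgeR, and 0 to 10 with each library left out (0 without control library 3, 10 without Dox library 1). By adjusted p alone the 5 became 8 with DESeq2, 3 with only the groups compared, 3 with the replicate block, 0 without libraries 3 by limma, 2 by DESeq2 and 0 by edgeR, and 0 to 12 with each library left out (0 without control library 3, 12 without Dox library 1, 10 without Dox library 2, 2 without Dox library 3). For Tc against Control, the 2 called became 0 without libraries 3 by limma, 1 by DESeq2 and 0 by edgeR, 0 with the replicate block and 0 to 2 with each library left out, with 0 without any 1 of the control libraries, Dox library 3, Tc library 1 or Tc library 3, and 1 without Tc library 2. By adjusted p alone the counts were 7 with only the groups compared, 0, 1 and 0 without libraries 3 by limma, DESeq2 and edgeR, 0 with the block, and 0 to 5 with each library left out, the highest without Dox library 2. For Dox against Tc, the 0 called became 3 with DESeq2, 4 with an unadjusted p and 0 to 7 with each library left out (7 without Dox library 1, 1 without Dox library 2), and by adjusted p alone 6 with DESeq2 and 0 to 9 (9 without Dox library 1, 2 without Dox library 2). The block called 0 members for Dox against Tc in both forms, and the count of 3 for Dox by both thresholds stayed at 3. The cause was not tested beyond the smaller number of libraries in those fits. The edgeR fit without libraries 3 was chosen after seeing the data. The members' median log2 change kept its sign in every alternative, from 0.12 to 0.35 for Dox, from 0.06 to 0.18 for Tc and from 0.05 to 0.25 for Dox against Tc. For most of these alternatives the share of all genes called is not given here. A count of members that rises or falls between alternatives is therefore not read as a result about the family. The effect of read depth on the counts was not tested.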

Other observations

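Got1, the cytosolic aspartate aminotransferase that works with Slc25a12 and Slc25a13 in the malate-aspartate shuttle, had 4255, 1415 and 2828 normalized counts in the control libraries, 1740, 39350 and 14500 with Dox, and 2863, 1879 and 2410 with Tc. Dox library 2 stood above every other library. The log2 fold change with Dox was 1.95 (SE 0.97, limma adjusted p 0.217), and without libraries 3 the adjusted p was 0.267 by DESeq2. In the same library Slc25a12 was at its highest (508 normalized counts). Slc25a13 was there at its lowest among the Dox libraries (1821), within its control range (1660 to 2211). Dox library 2 was the highest library for 33.4% of all genes.

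Ucp2, an uncoupling protein of the same family under another symbol, had 370, 717 and 538 normalized counts in the control libraries, 171, 527 and 279 with Dox, and 255, 534 and 366 with Tc. In each group library 2 held the highest value, and the groups overlapped. Markers of Kupffer cells, the liver macrophages in which Ucp2 is known to be expressed, were also highest in library 2 of each group, with sums of 5508, 8999 and 6981 in controls, 1518, 3617 and 2106 with Dox, and 2597, 5215 and 3839 with Tc. Neutrophil markers were likewise highest in library 2 of each group. Their sums were 36.0, 340 and 198 in controls, 4.21, 117 and 32.6 with Dox, and 8.79, 104 and 29.5 with Tc. The part of either cell type in the Ucp2 values was not tested.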
